A study of Mus musculus with 6 samples.

Results

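The chromatin regions described here are 727 ATAC-seq peaks whose signal was clearly higher in quiescent than in proliferating bone marrow B-cells. ATAC-seq uses a transposase to cut open chromatin, so the signal over a region is a measure of how accessible its DNA is. The 727 peaks were selected on the deposited signal of all 6 samples by 3 conditions. The mean over the 6 samples had to be at least 50, the lowest quiescent sample had to exceed the highest proliferating sample, and the log2 ratio of the group means, each with 1 added, had to be at least 1.5. They make up 0.749% of the 97124 peaks deposited for the series and 1.25% of the 57996 peaks with a mean of at least 50. They are called gained peaks below, a word that states only that the quiescent samples were higher. The 424 peaks that met the mirror-image conditions are called lost peaks.

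All 6 samples were primary bone marrow B-cells from PEtg mice, and both groups carry that strain's genotype. Quiescent cells were H2B-GFP high (n = 3) and proliferating cells H2B-GFP low (n = 3). The labels do not spell out the PEtg transgene, its promoter, the age of the mice, or whether samples came from separate or pooled animals. Any test therefore sees only how far these samples differ, some of which may be technical. Wild-type cells are not analysed here. The shallowest library was proliferating sample 1, with an estimated 8053007 reads in peaks, and the deepest was proliferating sample 3, with 48039266.

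H2B-GFP is a histone carrying green fluorescent protein, and it is diluted at each division, so a cell that keeps much of it has divided little. Accessible regions away from genes are often enhancers, stretches where transcription factors bind and from which they act on promoters that may lie far away. Promoters tend to be open in many cell types and states, while enhancers differ more between cell states. In bone marrow, B-cell precursors pass between cycling and resting stages, and both kinds of region take part in the change of gene activity between them.

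Few gained peaks lay on promoters, and those few carry sequences that can be shown. Of the 21262 promoter windows in the RefSeq table of GRCm38.p6 (250 bases before to 50 after a gene's start), 9 overlapped a gained peak. They belong to Ifi207, Cd300c, Treml4, Trim30c, Ccl3, Asgr2, Tlr11, Calm4 and C130050O18Rik. The letters GAAA, any 2 bases and GAAA again, a pattern of the kind bound by interferon regulatory factors, were found on either strand in 4 of the 9 windows (44.4%). The same letters were found in 321 of the 9270 windows overlapped by any peak with a mean of at least 50 (3.46%) and in 3.35% of all windows. With 9 windows this is a description of those 9 and not of the 727 peaks, whose sequence away from promoters was not analysed here. The 250 bases before the start are printed 5′ to 3′ on the gene's strand for the 4 genes with the match, because the match is what sets these windows beside the others. Capitals mark this pattern in either direction and, in Tlr11 only, also GAGGAAGT, a pattern of the kind bound by ETS factors.
Ifi207: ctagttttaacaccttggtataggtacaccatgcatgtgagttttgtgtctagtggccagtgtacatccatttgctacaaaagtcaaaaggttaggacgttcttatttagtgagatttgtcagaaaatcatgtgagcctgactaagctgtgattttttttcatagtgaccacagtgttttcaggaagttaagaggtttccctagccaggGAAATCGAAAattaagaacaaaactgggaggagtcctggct
Cd300c: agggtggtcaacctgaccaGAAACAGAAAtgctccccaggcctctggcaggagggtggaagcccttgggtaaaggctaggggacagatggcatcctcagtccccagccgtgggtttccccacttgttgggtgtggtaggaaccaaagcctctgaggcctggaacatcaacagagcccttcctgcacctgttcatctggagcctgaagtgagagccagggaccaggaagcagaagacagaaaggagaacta
Asgr2: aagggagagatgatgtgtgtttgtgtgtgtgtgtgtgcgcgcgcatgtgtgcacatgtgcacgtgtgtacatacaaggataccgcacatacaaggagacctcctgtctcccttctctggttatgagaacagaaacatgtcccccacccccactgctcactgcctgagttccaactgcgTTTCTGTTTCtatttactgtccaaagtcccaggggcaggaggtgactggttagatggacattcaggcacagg
Tlr11: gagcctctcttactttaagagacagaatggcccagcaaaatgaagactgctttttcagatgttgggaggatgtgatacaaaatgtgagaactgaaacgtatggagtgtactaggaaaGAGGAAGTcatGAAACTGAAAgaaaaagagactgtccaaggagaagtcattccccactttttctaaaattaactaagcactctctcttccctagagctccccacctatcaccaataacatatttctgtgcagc
The windows lie at chr1:173741760-173742059 (minus strand, Ifi207), chr11:114960458-114960757 (minus strand, Cd300c), chr11:70092394-70092693 (plus strand, Asgr2) and chr14:50357664-50357963 (plus strand, Tlr11), with the 50 bases after the start included in these positions.

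Ifi207 belongs to the interferon-inducible PYHIN family, Cd300c encodes an immunoglobulin-like receptor of myeloid cells, Asgr2 a subunit of the asialoglycoprotein receptor, and Tlr11 a Toll-like receptor for microbial protein. The peak over the Ifi207 promoter had a signal of 787, 784 and 742 in the quiescent samples and 387, 149 and 213 in the proliferating samples. The Cd300c promoter peak had 347, 554 and 703 in the quiescent samples and 105, 87.98 and 97.1 in the proliferating samples. In both genes the proliferating samples lay well under every quiescent sample, with group means of 771 ± 25.02 against 249.8 ± 123 at Ifi207 and 534 ± 179 against 96.7 ± 8.57 at Cd300c (mean ± SD, n = 3 each, quiescent first, as in all such pairs that follow). The Asgr2 and Tlr11 peaks were weaker, at 103 ± 22.5 against 26.2 ± 5.09 and 90.3 ± 33.7 against 25.98 ± 5.20.

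The other 5 promoter peaks lay at Treml4, which encodes a receptor of the TREM family (327 ± 129 against 90.02 ± 36.9), at Trim30c of the TRIM30 family (247 ± 25.8 against 73.7 ± 11.5), and at Ccl3, a chemokine that attracts leukocytes (145 ± 13.7 against 31.5 ± 4.84). Calm4, a calmodulin-like gene, had 93.8 ± 32.5 against 20.9 ± 4.91, and C130050O18Rik had 86.9 ± 10.1 against 27.01 ± 9.74. The 9 windows were poor in CpG, with a median of 2 CpG per 300 bases. The median was 21 in the 9270 windows under any peak with a mean of at least 50 and 13 in all 21262 windows. The share of G and C was 53.3% at the median, against 60.7% and 56.3%. Of 8 further patterns looked for on both strands, CANNTG was present in 9 of 9 windows (62.1% of the 9270). GAGGAAGT, TGTGGTT and TTCNNNGAA were each present in 1 of the 9, where 3.38%, 3.76% and 7.24% of the 9270 windows held them. TGANTCA was present in 0 of 9 windows, and so was TGTTTAC. The last pair, TCCC and GGGA with any 2 bases between them, and TTC and GAA with any 4 bases between them, was present in 0 of 9 too. Each pattern was counted by itself, and matches of different patterns may overlap.

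Across the 727 peaks the values that chose them run as follows. In quiescent samples 1 to 3 the gained peaks had a median signal of 150.8, 169.97 and 179.7. In proliferating samples 1 to 3 it was 49.5, 42.9 and 49.97. The 57996 peaks with a mean of at least 50 had sample medians from 147.9 to 157.9. The selection rule itself sets the gained peaks higher in the quiescent samples. The boxes of signal by sample show both sets side by side.

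**Figure D1:**
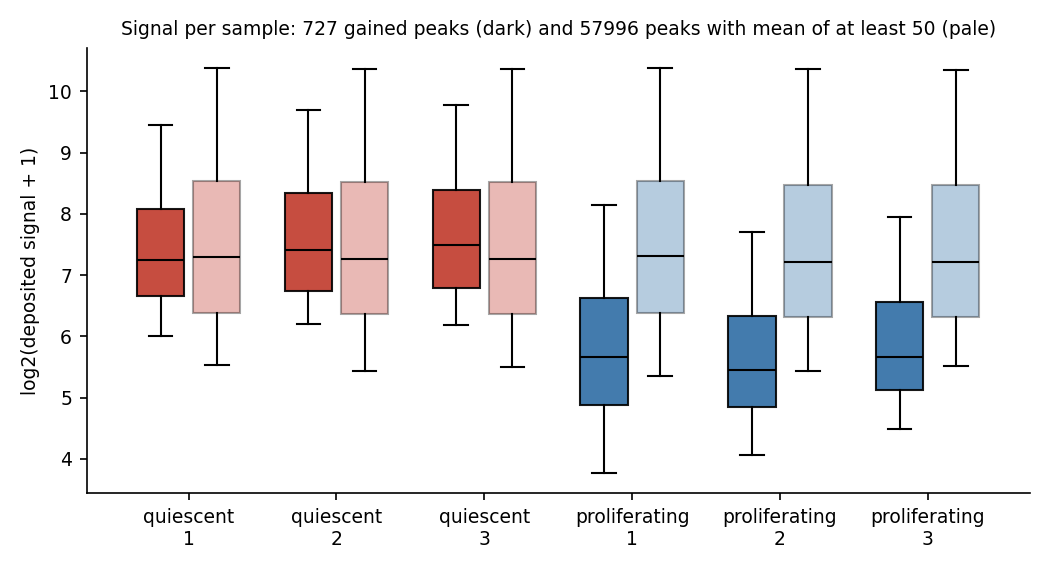
Deposited signal per sample on the log2(value + 1) scale, with red boxes for quiescent and blue boxes for proliferating samples. Dark boxes hold the 727 gained peaks and pale boxes the 57996 peaks with a mean of at least 50. Boxes give quartiles with the median as a line, and whiskers the 5 and 95 percentiles. The medians of the gained peaks were 150.8 to 179.7 in quiescent and 42.9 to 49.97 in proliferating samples, while the pale boxes are nearly level.

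The log2 ratio ran from the minimum of 1.5 up to 3.44 with a median of 1.71, that is 2.83- to 11.3-fold with a median of 3.31-fold on the linear scale. It reached 2 in 145 peaks, 2.5 in 26 and 3 in 2. The mean over the 6 samples ran from the minimum of 50 up to 2419 with a median of 106. It was at least 100 in 386 peaks, at least 200 in 183, at least 500 in 45 and at least 1000 in 9. Lost peaks had a median mean of 92.1. The plot of strength against ratio shows that large ratios were found mostly among peaks of low to middle strength, in both directions.

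**Figure D2:**
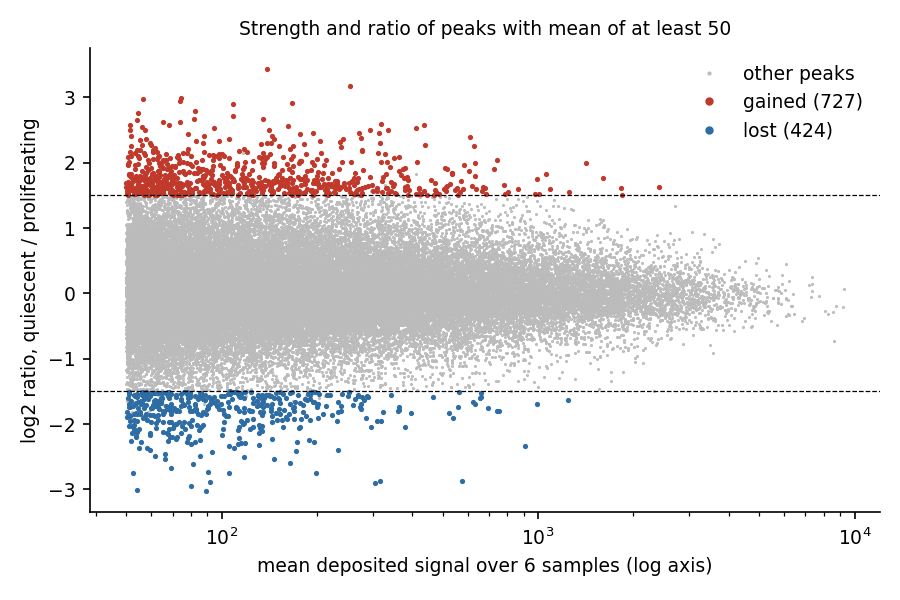
Mean deposited signal over the 6 samples (log axis) against the log2 ratio of quiescent over proliferating means, each with 1 added, for the 57996 peaks with a mean of at least 50. Red points are the 727 gained peaks, blue points the 424 lost peaks and grey points the rest. Dashed lines mark the ratio of 1.5 in either direction, and the largest gained ratio was 3.44.

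The separation between the groups was wide for most members and narrow for a few. The lowest quiescent value was 2.09 times the highest proliferating value at the median peak. It was at least 1.5 times in 636 peaks, at least 2 times in 399 and at least 3 times in 68, and under 1.1 times in 5. The samples did not contribute equally. Quiescent sample 1 was the lowest of its group in 399 peaks, and quiescent sample 3 was the highest in 315. Among proliferating samples, sample 2 was the lowest in 372 peaks and sample 1 the highest in 320. Within groups the median coefficient of variation was 22.1% in quiescent and 27.1% in proliferating samples, against 16.6% and 17.3% over the 57996 peaks. Taken by replicate number, the median log2 ratio was 1.54 for the pair numbered 1, 1.98 for pair 2 and 1.78 for pair 3. Taken this way, 387, 630 and 562 of the 727 peaks reached 1.5.

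At the threshold on the ratio, the members just inside were a peak near Eml4 (chr17:83485902-83486663, log2 ratio 1.5001) and a strong peak in Tanc2 (chr11:105901105-105902826, 1.5004). A peak in Pde7b and a peak near B4galt1 were just outside, at 1.4998 and 1.499. At the threshold on the mean, peaks near Slc22a5 and Klhl6 were inside at 50.004 and 50.03, and peaks in Magi1 and Chn2 outside at 49.7 each. At the condition that groups not overlap, a peak in Golga1 was inside with a lowest quiescent value of 48.9 and a highest proliferating value of 48.1. A peak in Sema5a was outside with 76.4 and 77.4. A further 25 peaks met the ratio but not the separation, and 828 met both of these but had a mean under 50.

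How many other peaks behave alike sets the scale for these counts. Among the 57996 peaks with a mean of at least 50, 9494 (16.4%) had every quiescent sample above every proliferating sample, and 9119 had the reverse order. In limma, fitted to the log2(value + 1) signal of 87411 peaks, 3501 (4.01%) passed an adjusted p of 0.05 with higher signal in quiescent cells. With the replicate number as a block, 8885 (10.2%) did. Of the 727 gained peaks, 672 passed without the block and 726 with it. Since the rule used the same contrast, nothing is read from those counts.

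The number of gained peaks rested on the scaling and on 1 library. When the estimated reads were scaled to their total in peaks, 367 peaks met the rule, 363 of them among the 727, and 912 met the mirror rule. The median log2 ratio of peaks with a mean of at least 50 was then -0.16, where it was -0.01 as deposited. With median-of-ratios scaling of the same reads, 820 met the rule, 639 of them among the 727, and 426 the mirror rule. That gained peaks outnumbered lost peaks therefore holds under the deposited and the median-of-ratios scaling and turns under scaling to the total. All 727 kept a higher quiescent mean under both, with log2 ratios of at least 1.06 under scaling to the total (median 1.52) and 1.38 under median-of-ratios (median 1.77). The groups still did not overlap in 693 and 724 of them. The 727 were chosen on these same 6 samples. These values therefore show how far a scaling moves the members and are no independent support for them. Without proliferating sample 1 the rule took 1236 peaks, 619 of them among the 727. Leaving out any other sample gave 643 to 886. Proliferating sample 1 is the shallowest, and 144 of the 727 peaks held fewer than 10 estimated reads there, while 2 peaks did so in proliferating sample 2 and 0 in sample 3. The part of depth in the count was not tested.

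Gained peaks lay away from the ends of genes. Only 34 of 727 (4.68%) were within 1 kb of either end of a protein-coding gene, where 21.0% of the peaks with a mean of at least 50 were. Gene bodies farther from an end held 357 (49.1%), and 336 (46.2%) lay between genes. Lost peaks had much the same make-up, with 5.66% at gene ends, 50.9% in gene bodies and 43.4% between genes. Measured from annotated starts, which can be told from the other gene end through the promoter table (genes of chromosome 18 are not in it), 1.85% of gained peaks and 16.9% of the 57996 lay within 1 kb. The low share was found in each class of strength. In peaks with a mean of 50 to 100, 100 to 200, 200 to 400 and 400 or more, it was 4.99%, 3.94%, 5.79% and 3.23% for gained peaks, against 14.8%, 21.2%, 27.2% and 24.7% for all peaks of that strength.

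Gained peaks also tended to lie farther out among the peaks that are not at gene ends. Of 693 such gained peaks, 92 (13.3%) had no protein-coding gene within 100 kb, against 7.72% of the 45837 such peaks with a mean of at least 50. The lost peaks stood at 11.5%. Peaks more than 50 kb from the nearest gene end made up 32.6% of the gained, 37.3% of the lost and 24.97% of all such peaks. The median distance to the nearest gene end was 24255 bp for gained, 26601 bp for lost and 18668 bp for all such peaks.

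Width followed strength. Gained peaks had a median width of 692 bp, with quartiles at 529.5 and 934.5 bp and a range from 223 to 2425 bp. The peaks with a mean of at least 50 had a median of 864 bp and the lost peaks 535 bp. At a mean of 50 to 100 the gained peaks were as wide as the others, at 544 against 541 bp. They were narrower in each stronger class, at 760 against 795 bp, 951 against 1113 bp, and 1306.5 against 1612 bp. With gene ends left out, gained peaks were no narrower than all peaks at a mean of 50 to 100 (538 against 522 bp) or 100 to 200 (757 against 751 bp). They stayed narrower at 200 to 400 (951.5 against 1033 bp) and at 400 or more (1262 against 1536 bp). Lost peaks were narrower than gained peaks in each class.

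**Figure D3:**
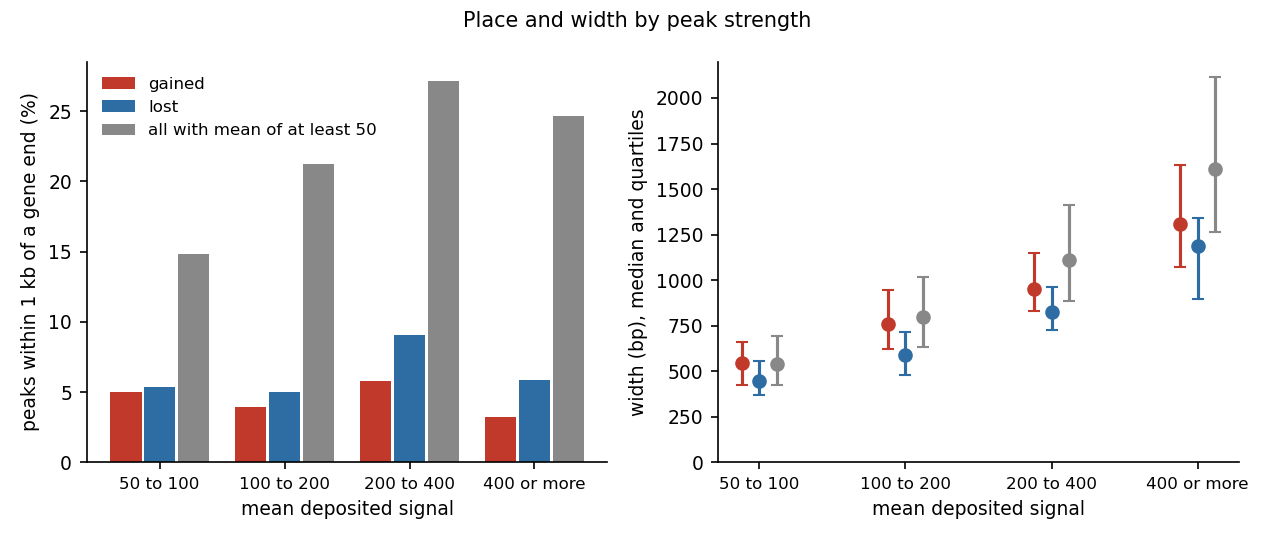
Share of peaks within 1 kb of a gene end (left, bars, %) and width in bp (right, points at the median, lines from the lower to the upper quartile) in 4 classes of mean deposited signal. Red is gained, blue lost and grey all peaks with a mean of at least 50. The gained and lost bars stay under 10% in every class while the grey bars lie between 14.8% and 27.2%.

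The 3 widest members were strong peaks between genes. The widest, 2425 bp (chr17:94761068-94763493), lay 10854 bp from Mettl4, a gene of the methyltransferase-like family, with 2735, 1807 and 2281 in the quiescent samples and 836, 296 and 572 in the proliferating samples. The next, 2145 bp (chr13:54126046-54128191), lay 17700 bp from Sfxn1, a mitochondrial serine transporter, with 1748, 1578 and 1626 in the quiescent samples and 621, 316 and 459 in the proliferating samples. At the third, 2142 bp and near Fam83a (chr15:58014153-58016295), the quiescent samples were far apart, with 502, 1176 and 1902 in the quiescent samples and 204, 229.9 and 435 in the proliferating samples. The first of these was also among the 6 strongest.

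The strongest gained peak lay 3282 bp from Prps1l1, a phosphoribosyl pyrophosphate synthetase-like gene (chr12:34989718-34991497), with 2460, 4055 and 4457 in quiescent samples 1 to 3, in that order, and with 999, 1068 and 1474 in proliferating samples 1 to 3. A peak in Tanc2, a scaffold protein gene, had 1776, 3300 and 3065 in the quiescent samples and 668, 1142 and 1066 in the proliferating samples, and its log2 ratio of 1.5004 is at the threshold. A peak 54724 bp from Trio (chr15:28080572-28081993), had 2311, 2980 and 2951 in the quiescent samples and 996, 651 and 1045 in the proliferating samples. In all 3 the lowest quiescent sample was quiescent sample 1. A peak with no protein-coding gene within 100 kb (chr16:55698044-55699556) was even across the quiescent samples, with 2536, 2416 and 2506 in the quiescent samples and 913, 574 and 709 in the proliferating samples. The last of the 6, in the body of Mrpl15, a mitochondrial ribosomal protein gene (chr1:4774357-4775998), had 1741, 2125 and 1736 in the quiescent samples and 813, 514 and 577 in the proliferating samples. Their log2 ratios were 1.63, 1.5004, 1.61, 1.76, 2.00 and 1.56 in the order of strength, so that the strongest peaks were mostly near the lower bound of the rule.

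Among peaks stronger than the median member, the largest ratio belonged to a peak far from any gene. It lay 507416 bp from the nearest protein-coding gene (chr12:92375566-92376302) and had 249, 252 and 267 in the quiescent samples and 24.1, 17.1 and 27.03 in the proliferating samples. The quiescent samples lay close together and every proliferating sample was far below them, a log2 ratio of 3.44. The next, also far from genes (chr7:74683869-74684506, 3.17), was uneven, with 172, 719 and 482 in the quiescent samples and 59.2, 51.7 and 38.7 in the proliferating samples. A peak in Bco2, a carotenoid-cleaving enzyme gene (chr9:50537180-50538033), had 264, 300.1 and 321 in the quiescent samples and 26.8, 26.6 and 61.3 in the proliferating samples (2.92).

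The other 5 peaks of largest ratio all have a gene. At an end of Zcwpw1, which encodes a reader of histone methylation in meiosis (chr5:137822491-137823785), the values were 117, 170.4 and 288 in the quiescent samples and 13.3, 24.6 and 36.7 in the proliferating samples (2.90). This peak also lies within Pilra, which has a gained peak of its own (chr5:137824964-137825792). In Foxred2, an oxidoreductase gene of the endoplasmic reticulum, the log2 ratio was 2.68 at 234 ± 51.1 against 35.7 ± 7.80. A peak in Ankrd33b, an ankyrin repeat gene, had 305, 948 and 984 in the quiescent samples and 72.9, 119.9 and 178 in the proliferating samples (2.58), with quiescent sample 1 well under the other quiescent samples but above all proliferating samples. The remaining pair, near Tnip3 and at an end of Ssbp3, belongs to genes with several gained peaks.

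Gained peaks were scattered over all 19 autosomes, and most stood alone. The share of peaks with a mean of at least 50 that were gained was highest on chromosome 15 (48 of 2428, 1.98%, with 9 lost) and chromosome 12 (46 of 2491, 1.85%). It was lowest on chromosome 8 (20 of 2700, 0.741%) and chromosome 2 (38 of 4491, 0.846%). The median distance from a gained peak to the next was 528339 bp. Another gained peak lay within 20 kb of 101 of them (13.9%), against 11.8% for lost peaks among themselves, which are fewer. In 28 of these the neighbour was within 1 kb, so such pairs may be 1 stretch of open chromatin that was split into separate peaks. The 101 peaks formed 46 pairs and 3 runs of 3.

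Peaks beside a gained peak leaned the same way. Neighbours along the chromosome were taken among peaks with a mean of at least 50. For 95 of 727 gained peaks (13.1%), the neighbour before, the neighbour after or both were gained. Of all such peaks 1.25% are gained, which is the share for a single peak and not for either of a pair. Counted the same way, 44 of 424 lost peaks (10.4%) had a lost neighbour. A lost peak stood before or after 5 of the gained peaks. The nearest other peak lay at a median of 5420 bp, and its log2 ratio was 0.40 at the median, with quartiles of 0.02 and 0.83. It was above 0 for 553 of 727 (76.1%), against 48.6% of all peaks with a mean of at least 50. Ratios of neighbours use the same 6 samples and, where close, the same stretch of chromatin. At the ends of genes the lean was small. The strongest gene-end peak of 378 genes that had a gained peak and a peak at an end stood at a median log2 ratio of 0.03, against -0.10 for 9552 genes. The 4567 other peaks of genes with a gained peak had a median of 0.15.

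The 3 runs lay near Tnip3, Ogfrl1 and Cyp7b1. Tnip3 encodes a partner of the NF-kB inhibitor A20 and is itself known as a brake on NF-kB signalling. Its run spans chr6:65585377-65612232, 26.855 kb, and 3 of the 4 peaks there with a mean of at least 50 were gained. The first, 4487 bp outside the gene, had 130.3, 209.5 and 229 in quiescent samples 1 to 3, in that order, and with 31.995, 12.6 and 39.7 in proliferating samples 1 to 3. The next, in the gene body, had 399, 364 and 456 in the quiescent samples and 121, 41.95 and 71.8 in the proliferating samples, and the last 136, 106 and 113 in the quiescent samples and 28.9, 22.2 and 35.9 in the proliferating samples. In each of the 3 the lowest quiescent value was more than 2 times the highest proliferating one, and the log2 ratios were 2.71, 2.36 and 1.99. Proliferating sample 2 was the lowest sample in all 3.

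Near Ogfrl1, a gene related to the opioid growth factor receptor, all 3 peaks with a mean of at least 50 within 16.321 kb (chr1:23418028-23434349) were gained, 34827 to 49422 bp from the gene. The first had 72.8, 86.9 and 143 in the quiescent samples and 12.8, 5.22 and 17.9 in the proliferating samples, and the second, which begins where the first ends, had 498, 659 and 568 in the quiescent samples and 248, 154 and 200.1 in the proliferating samples. The third had 537, 634 and 542 in the quiescent samples and 286, 133 and 150.03 in the proliferating samples. The first pair may be 1 open stretch, in which the weaker peak had the larger log2 ratio (2.98 against 1.51). Near Cyp7b1, which encodes an oxysterol hydroxylase, 3 of 4 peaks within 25.48 kb (chr3:18308470-18333950) were gained. The strongest of these was even within the quiescent group, with 655, 658 and 667 in the quiescent samples and 292, 173 and 226 in the proliferating samples. The other gained peaks there were weak, at 82.3 ± 2.37 against 26.3 ± 4.94 and 99.7 ± 33.3 against 31.3 ± 11.5.

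**Figure D4:**
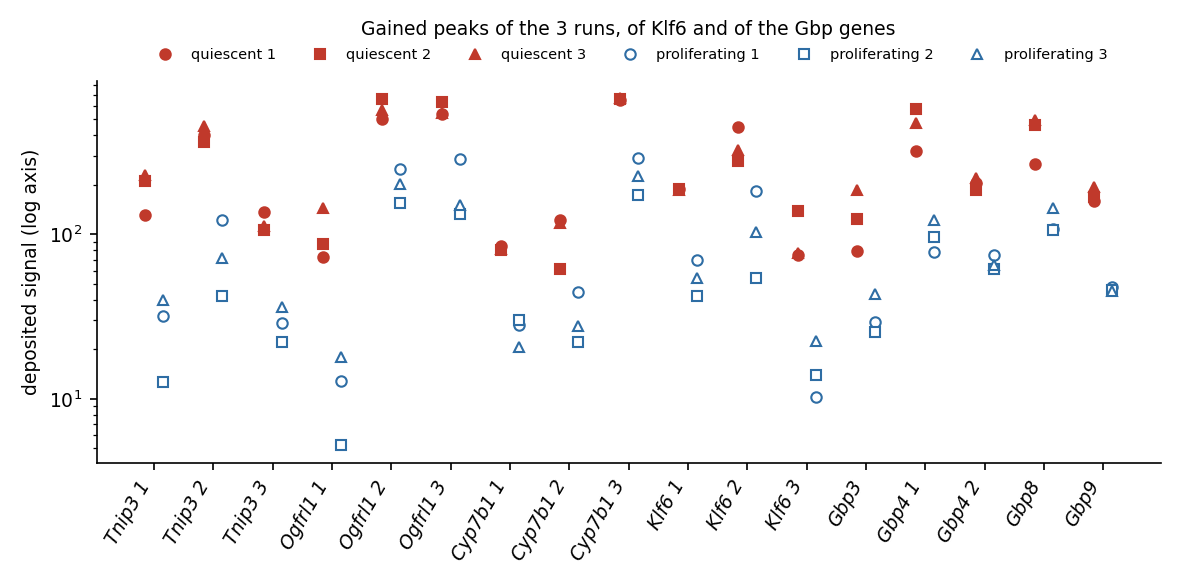
Deposited signal (log axis) in every sample at the gained peaks of the 3 runs (Tnip3, Ogfrl1, Cyp7b1), of Klf6 and of the listed Gbp genes. Numbers after a gene order its gained peaks by position. Filled red symbols are quiescent and open blue symbols proliferating samples, and the symbol shape is the replicate number. By the selection rule every filled symbol lies above every open one.

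Each peak was assigned to a protein-coding gene that it overlaps or, failing that, to the closest one within 100 kb, which placed 635 gained peaks at 561 genes. A single gained peak was found for 499 of these, 2 for 52, 3 for 8 and 4 for 2. Genes with 3 or more have more peaks to begin with. They held a median of 12.5 peaks with a mean of at least 50 and a median length of 155 kb, against 2 peaks and 24.3 kb over the 13472 genes with such a peak. Lost peaks had 2 such genes. Without proliferating sample 1, 43 genes had 3 or more, and without quiescent sample 2 or quiescent sample 3, 6 did. The plot of gained against all peaks per gene shows that the share gained ranged from 3 of 6 to 3 of 31 among the genes with 3 or more.

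**Figure D5:**
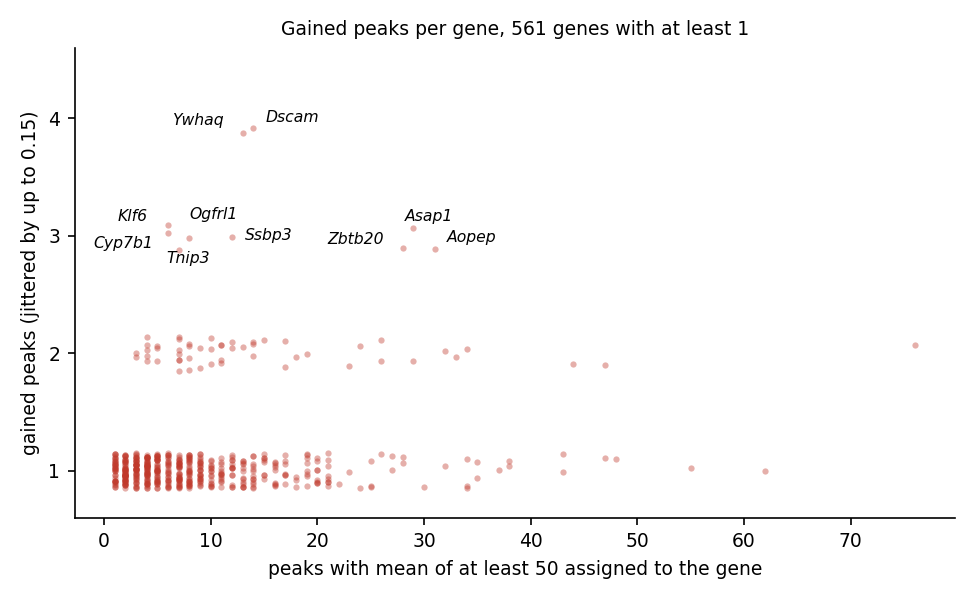
Number of peaks with a mean of at least 50 assigned to a gene against its number of gained peaks, moved up or down by up to 0.15 so that points can be told apart, for the 561 genes with at least 1 gained peak. Genes with 3 or 4 gained peaks are named. Cyp7b1, Klf6, Tnip3 and Ogfrl1 hold 6 to 8 peaks in all, while Zbtb20, Asap1 and Aopep hold 28 to 31.

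Ywhaq, which encodes a 14-3-3 adaptor protein, had 4 gained peaks of 13. The strongest, in the gene body (chr12:21409215-21410421), had 598, 979 and 874 in the quiescent samples and 138, 258 and 254 in the proliferating samples, and a weaker peak that begins 4 bp on was gained as well. The other pair lay 13414 and 62548 bp outside the gene at 86.8 ± 51.2 against 27.4 ± 8.995 and 150.2 ± 32.6 against 51.2 ± 33.3. In the nearer of these, the spread within the quiescent group was large beside the difference. Dscam, a cell adhesion gene best known from neurons, had 4 of 14. Its strongest gained peak (chr16:97075215-97077029) had 1564, 1451 and 1569 in the quiescent samples and 716, 248 and 400.3 in the proliferating samples, with proliferating sample 1 well above the other proliferating samples. The other 3 had log2 ratios of 1.58, 1.95 and 2.24.

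Klf6, a zinc finger transcription factor of the Krüppel-like family, had 3 of 6, all outside the gene at 17614 to 81695 bp. The farthest (chr13:5779409-5779794) was nearly level within the quiescent group, with 188, 188 and 185 in the quiescent samples and 69.5, 42.3 and 54.2 in the proliferating samples. The strongest (chr13:5803357-5804980) had 446, 279 and 323 in the quiescent samples and 183, 54.5 and 103 in the proliferating samples, and the nearest 74.6, 138 and 76.5 in the quiescent samples and 10.2, 13.9 and 22.5 in the proliferating samples. Ssbp3 had 3 of 12. It encodes a single-stranded DNA-binding protein that works with LIM-domain-binding cofactors, and the peak at its end (chr4:107048488-107049183) had 463, 537 and 642 in the quiescent samples and 119, 62.1 and 89.3 in the proliferating samples, a log2 ratio of 2.59. The other Ssbp3 peaks were weak, at 87.97 ± 39.6 against 28.5 ± 7.76 and 104 ± 36.4 against 30.02 ± 16.03.

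In 3 of the 10 genes, those with the most peaks, the gained peaks were the smallest share. Zbtb20, a zinc finger repressor active in plasma cells, had 3 of 28, the strongest at 221 ± 4.41 against 52.2 ± 22.4. Asap1, which activates the GTPase of Arf proteins, had 3 of 29, of which a pair is 13 bp apart. At those 2 peaks quiescent sample 1 stood at 102 and 36.2, while quiescent samples 2 and 3 were between 156 and 361. Aopep, an aminopeptidase gene, had 3 of 31 and was the one gene of the 10 that also had a lost peak. Its strongest gained peak (chr13:63108011-63109240) had 782, 1050 and 1212 in the quiescent samples and 423, 241 and 318 in the proliferating samples. In all, 20 genes had both gained and lost peaks.

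Of the 52 genes with 2 gained peaks, 5 are described here, those with the largest share of their peaks gained and, among ties, the largest summed signal of the gained peaks. Cd300c had 2 of 3, the promoter peak shown above and a peak 4844 bp away at 133 ± 49.97 against 15.9 ± 6.59. I830077J02Rik had 2 of 3, at 233 ± 35.98 against 52.2 ± 10.6 and 164 ± 55.5 against 36.5 ± 8.83. Nsl1, a kinetochore subunit gene, had 2 of 4, with a strong peak at 632 ± 82.3 against 219.9 ± 66.1 and a weak one at 88.7 ± 12.98 against 13.96 ± 7.73. Cwf19l1 had 2 of 4, at 262 ± 102 against 71.4 ± 16.1 and 236 ± 47.4 against 58.2 ± 16.3. Csmd3, a very long gene for a membrane protein, had 2 of 4, at 160.7 ± 29.2 against 46.3 ± 27.04 and 317 ± 65.8 against 87.1 ± 29.4. Tbc1d8 and Nipal2 also had 2 of 4, with a smaller summed signal.

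The 9 gene lists held small numbers of gained peaks. These made up 0% to 2.42% of a list's peaks in 8 of the lists, on both sides of the share over all genes. Over all genes, 635 of 54459 peaks with a mean of at least 50 were gained (1.17%), and the median log2 ratio of these 54459 was -0.02. For 30 transcription factors of the B lineage, 6 of 651 peaks were gained (0.922%, median log2 ratio 0.05), 2 of them in Tcf12, an E protein. The stronger Tcf12 peak (chr9:72029449-72031251) had 705, 759 and 652 in the quiescent samples and 249, 179.7 and 204 in the proliferating samples, with little spread in either group. In Ebf1, which specifies the B lineage, 1 of 62 peaks was gained (chr11:44906334-44907478), with 438, 328 and 293 in the quiescent samples and 110.2, 103 and 121 in the proliferating samples. Peaks 91415 bp from Foxo1, which drives Rag gene expression, and in Bach2, a repressor that holds back plasma cell fate, stood at 182 ± 56.5 against 61.8 ± 9.87 and 194 ± 78.6 against 40.998 ± 19.4. Runx3 had the last of the 6. The adhesion, homing and niche list had 0 of 292 gained peaks, and the stem and progenitor list 0 of 122.

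For genes of quiescence and growth arrest, 7 of 359 peaks were gained (1.95%, median log2 ratio 0.04) and 0 lost. Besides the 3 of Klf6 and that near Foxo1, one lay 57708 bp from Cdkn2b, an inhibitor of the cyclin D kinases (chr4:89368740-89369939), with 654, 567 and 619 in the quiescent samples and 267, 147 and 222 in the proliferating samples. A weak one lay near Klf4, a Krüppel-like factor that restrains cycling, at 86.4 ± 14.8 against 28.8 ± 6.56, and Tgfbr2, a receptor for transforming growth factor beta, had the seventh. For genes of the cell cycle and replication, 2 of 167 were gained (1.20%) and 2 lost (median log2 ratio -0.08). They lay in E2f2 and E2f7, both transcription factors of the cell cycle, E2f2 an activator and E2f7 a repressor. The E2f2 peak (chr4:136185250-136186113) had 249, 193 and 203 in the quiescent samples and 149.8, 33.6 and 34.8 in the proliferating samples, so proliferating sample 1 came nearest to the quiescent samples. E2f7 showed the same order, with 269.9, 160.96 and 218 in the quiescent samples and 109.7, 32.4 and 54.5 in the proliferating samples.

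For signalling genes the counts were also small. The IL-7 and JAK-STAT list had 5 of 217 peaks gained (2.30%) and 4 lost, with a median log2 ratio of 0.10. Its gained peaks lay in Il7r, the receptor for the growth factor of B-cell precursors (94.2 ± 23.4 against 30.96 ± 8.39), in the kinase gene Tyk2 (536 ± 105 against 122 ± 38.1), near the kinase gene Pim1 (298 ± 79.6 against 99.8 ± 22.8) and at Stat3, with 2. The stronger Stat3 peak (chr11:100936648-100937522) had 222, 408 and 379 in the quiescent samples and 26.9, 79.3 and 119 in the proliferating samples, the lowest value resting on few reads in the shallowest sample. The list of B-cell receptor signalling had 3 of 286 (1.05%, median -0.05), in Prkcb with 2 and Prkcd, both protein kinase C genes. Their strongest peaks stood at 106 ± 58.98 against 36.1 ± 4.45 and 94.5 ± 28.5 against 30.2 ± 9.52. Of the AP-1, immediate-early and NF-kB list, 6 of 248 were gained (2.42%) and 2 lost (median 0.10), 3 of them at Tnip3. The others lay near Nr4a1, an orphan nuclear receptor (708 ± 208 against 235 ± 60.8), Dusp5, a phosphatase of MAP kinases (240.2 ± 101 against 75.4 ± 29.6), and Ier3, an early response gene (216 ± 55.6 against 64.6 ± 22.6).

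The interferon response list had the highest share, 5 of 85 peaks (5.88%, median log2 ratio 0.14, 0 lost), and all 5 lay at guanylate-binding protein genes. These encode interferon-induced GTPases that act against microbes inside cells. On chromosome 5 the peak in Gbp4 (chr5:105136219-105137341) had 321, 576 and 471 in the quiescent samples and 78.1, 96.3 and 121 in the proliferating samples, and that in Gbp8 (chr5:105050343-105051500) had 268, 457 and 493 in the quiescent samples and 108, 106 and 143 in the proliferating samples. The Gbp9 peak (chr5:105105443-105106189) was more even, with 159.6, 169 and 194 in the quiescent samples and 48.02, 45.6 and 45.1 in the proliferating samples. On chromosome 3 a peak near Gbp3 stood at 129 ± 52.7 against 32.6 ± 9.63. A peak in Gbp10, which is not on the list and was named after its values were seen, stood at 243 ± 99.6 against 44.9 ± 9.23 in the same cluster. The Gbp genes lie side by side in each cluster, so these peaks are neighbours and not separate choices.

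The loci of antigen receptors held 3 gained peaks in all. The heavy-chain locus had 1 gained and 1 lost peak among 161 with a mean of at least 50 (0.621% for each), and the kappa locus had 0 gained and 12 lost among 234 (5.13% lost, against 0.731% of all such peaks). The T-cell receptor beta locus had 2 gained among 25 (8%, against 1.25% of all such peaks), both nearest to trypsin-family genes that lie within it (Try4 and Prss2). No member lay in the lambda, alpha or gamma loci, with 13, 8 and 7 peaks. Within 10 kb of an annotated miRNA hairpin there were 4 gained peaks, at Mir7683, Mir7043, Mir6541 and Mir1894, 2374 to 9374 bp away.

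Markers checked the labelled cell type. Of 15 B-cell markers, 14 had a peak at a gene end, among them Cd79a, Pax5 and Igll1. The summed signal of their strongest gene-end peaks was 21601 to 23270 in quiescent and 22260 to 27026 in proliferating samples, so the groups overlapped, while median-of-ratios scaling put every quiescent sample above, at 23363 to 28781 against 20757 to 22073. Of the 14, on the deposited scale, 5 were higher in quiescent cells and 9 lower, and the median log2 ratio was -0.17. Ms4a1, which encodes CD20, was among the lower ones, at 1065 ± 76.8 against 2066 ± 325, as was Pax5, the factor that holds B-cell identity, at 856 ± 72.4 against 1254 ± 92.9, both chosen after their values were seen. Of the 141 peaks of the list with a mean of at least 50, 4 were gained (2.84%, against 1.17% over all genes), near Ebf1, Rag1, Il7r and Fcrla, and 0 lost. Rag1, a subunit of the recombinase of early B-cells, had a gained peak in its gene body (chr2:101645748-101647378) with 437, 329 and 464 in the quiescent samples and 72.7, 159 and 143 in the proliferating samples. Fcrla, an Fc receptor-like gene of B-cells, had one at a gene end, at 149 ± 12.6 against 48.3 ± 2.35. The strongest peak of Fcrla lay in the gene body and was not gained, with group means of 2473 against 2804 (log2 ratio -0.18).

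The summed signal of myeloid markers was higher in quiescent cells. Of 22 markers, 12 had a gene-end peak, 9 of them higher in quiescent cells, and their summed signal was 3033 to 3114 in quiescent and 1906 to 2301 in proliferating samples, so the groups did not overlap. They did not overlap with estimated reads scaled to the total either, at 2970 to 3095 against 2006 to 2281. With median-of-ratios scaling they stood at 3133 to 3463 against 1707 to 2216. Under that scaling all 5 marker lists were higher in every quiescent sample, so it does not set the myeloid list apart. Csf1r, the receptor for macrophage colony-stimulating factor, stood at 534.5 ± 87.2 against 257 ± 44.2. The defining granulocyte genes Mpo, Elane, S100a8, S100a9 and Csf3r had no peak at a gene end. Other granulocyte genes of the list had one, Prtn3 at 652 ± 90.6 against 412 ± 129.5 and Ltf at 40.8 ± 1.48 against 25.7 ± 6.31 (both chosen after their values were seen), with no overlap of the groups at either. Of the 72 peaks of these markers with a mean of at least 50, 2 were gained (2.78%, against 1.17% over all genes) and 1 lost (median log2 ratio 0.14). Both gained peaks lay near Ccr2, a chemokine receptor of monocytes. The stronger Ccr2 peak had 97.3, 192 and 222 in the quiescent samples and 77.4, 46.9 and 49.8 in the proliferating samples. In bulk samples a larger share of another cell type and more open chromatin in the B-cells cannot be told apart, and the part of myeloid cells in these peaks was not tested.

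T and NK markers summed to 5528 to 5908 in quiescent and 4955 to 5160 in proliferating samples (13 of 23 with a gene-end peak, 9 higher in quiescent cells), again without overlap. Cd3e, Cd3g and Cd4 had no gene-end peak. Cd3d, a subunit of the T-cell receptor complex, had one at 984 ± 84.9 against 756 ± 28.4, and Cd28, a costimulatory receptor, at 901 ± 50.3 against 630.3 ± 27.6 (likewise chosen after their values were seen), with no overlap of the groups at either. Others of the list went the other way. Cd247 stood at 788 ± 49.2 against 907 ± 53.2 and Lat at 85.9 ± 4.79 against 119 ± 28.8, also without overlap. Gata3 and Lck had a lower quiescent mean too. Of the list's 85 peaks 1 was gained (1.18%, against 1.17% over all genes), 36873 bp from Ncr1 (144 ± 24.9 against 39.4 ± 16.8). Markers of erythroid cells and megakaryocytes overlapped between the groups, at 2187 to 2536 against 2053 to 2418 (5 of 16 with a gene-end peak), with no peak at an end of Klf1 or Epor and 0 of 30 peaks gained. Plasmacytoid dendritic and plasma cell markers overlapped as well, at 7962 to 9460 against 8115 to 9305 (14 of 17 with a gene-end peak, of which 8 stood higher in the quiescent mean). With median-of-ratios scaling both of these lists were higher in every quiescent sample, at 2307 to 2953 against 1826 to 2216 and at 9299 to 10093 against 7626 to 7829. Of the 121 peaks of the plasmacytoid dendritic and plasma cell list 4 were gained (3.31%, against 1.17% over all genes). This was the highest share of the 5 marker lists but rests on 4 peaks. Of these, 2 lay near Siglech, a receptor of plasmacytoid dendritic cells, and 1 each near Prdm1, the factor of plasma cell fate, and Sdc1, the plasma cell surface protein CD138. The stronger Siglech peak (chr7:55782348-55783165) had 369.6, 622 and 583 in the quiescent samples and 148, 144 and 187 in the proliferating samples. At the gene end Siglech stood at 546 ± 112 against 216 ± 62.9, the largest log2 ratio of the list's gene-end peaks (1.34, median 0.02). Irf4 went the other way there, at 863 ± 40.8 against 1187 ± 137, without overlap (both chosen after their values were seen). Tlr9, Irf7, Tcf4, Bst2 and Mzb1 also had a lower quiescent mean at the gene end. The gained peak near Prdm1 (chr10:44589074-44589763) was level within each group, with 314, 309 and 306 in the quiescent samples and 102, 75.3 and 99.1 in the proliferating samples. The gained peak near Sdc1 was uneven at 408 ± 187 against 134 ± 69.7. At their gene ends the log2 ratio was 0.15 for Prdm1 and 0.015 for Sdc1.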

How the data were processed

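The members and gene lists were chosen with earlier results of these data known. Bowtie2, SAMtools, MACS2 and build mm10 are named in the submitters' processing notes; versions, settings and the handling of the transposase offset were not found in them. For 97124 peaks in a single list, the authors deposited a scaled signal in each sample, with coordinates printed here as deposited. The scaling depends on peak strength, and no source here describes it. Low values lie on steps worth 1 read, so reads were estimated by following each sample's step along peak strength. Of the values of 1 to 1000 reads, 93.0% to 99.9% came out within 0.1 of a whole number in the 6 samples. In the gained peaks, where all values of at least 1 read were counted with no upper limit, 74.7% to 100% did. These reads are estimates.

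The design had named limma with an intensity trend, used here (limma 3.58.1, R 4.3.3) on log2(value + 1) over the 87411 peaks above the lowest 10% by mean, with Benjamini-Hochberg adjustment. It gives the background share of calls and no evidence on the members. Peaks were assigned to RefSeq protein-coding genes of GRCm38.p6, the assembly behind mm10; the closest gene says where a peak lies, not what it acts on. Of 21896 such genes, 17491 (79.9%) had a start in the promoter table. Named peaks were chosen by rule: the largest ratios above the median mean, the strongest, the widest, the runs chained at 20 kb, the genes with most gained peaks, and up to 4 genes per list. Scripts were tested on simulated data. The planned motif count in peak centres needs a genome sequence and was not run.

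Same-numbered samples deviated together from their group means (correlations over peaks of 0.43, 0.29 and 0.21 for numbers 1, 2 and 3). The numbers, taken from the sample titles, served as pairs only in the replicate block and in the ratios taken by replicate number. The selection rule and the main limma fit used no pairing. Numbers 2 and 3 are not set apart from each other, since quiescent 2 with proliferating 3 gave 0.22 and quiescent 3 with proliferating 2 gave 0.15, while the 4 other pairings of unlike numbers gave -0.36 to -0.21. The alternatives tried were other minimums, pseudocounts and distances, other scalings, leaving out each sample, the replicate block and limma-voom on estimated reads. The other steps used numpy 2.4.6, pandas 2.3.3 and, for plots, matplotlib 3.10.9 in Python 3.11.15.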

Additional observations from a re-analysis of the deposited data

How the results depend on the processing

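The low share at gene ends was the steadiest result, at 4.68% (95% exact binomial interval 3.26% to 6.47%, counting error only). It stayed in that interval in 15 of 17 alternatives and left it only by construction, at 12.1% with 3 kb in place of 1 kb and at 1.85% with annotated starts, an alternative chosen after seeing the data. With 1 sample left out it was 4.32% to 5.43%. The other results move with the thresholds. A mean minimum of 25 gave 1172 gained peaks with a median width of 541 bp, 21.0% with another within 20 kb and 40 genes with 3 or more, and a minimum of 100 gave 386 peaks, 887 bp, 8.81% and 1 gene. A log2 ratio minimum of 1 gave 2642 peaks, 728.5 bp, 28.2% and 140 genes, and a minimum of 2 gave 145 peaks, 6.90% and 0 genes. A pseudocount of 10 gave 460 peaks, 765.5 bp, 9.78% and 4 genes. Estimated reads scaled to their total gave 367 peaks, 812 bp, 9.54% and 2 genes. The same reads with median-of-ratios scaling, also chosen after seeing the data, gave 820 peaks, 804 bp, 16.7% and 17 genes. A distance of 10 or 50 kb in place of 20 kb gave 9.90% and 19.1%. Genes with 3 or more numbered 5 with a nearest gene within 10 kb and 4 with overlap only. Leaving out 1 sample in turn gave 643 to 1236 gained peaks, a median width of 623.5 to 720 bp, 11.98% to 19.6% with another within 20 kb and 6 to 43 genes, the high counts of peaks and genes without proliferating sample 1. The cause of these shifts was not tested beyond the change of setting itself.

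With the replicate number as a block, limma passed 726 of the gained peaks, against 672 without the pairing, and the block changed no membership, which rests on no test. Among all 87411 tested peaks, 8885 and 3501 passed with higher quiescent signal. With 1 sample left out limma passed 0 to 682 of the gained peaks, among 0 to 5572 of all tested peaks in that direction. Leaving out quiescent sample 2 gave 65 gained peaks among 79 of all, and quiescent sample 3 gave 0 among 0. Without proliferating sample 2 there were 320 among 556, and without proliferating sample 3 there were 400 among 753. In the case of 0, limma passed no peak of any kind, although the unadjusted p was under 0.05 for 16512 peaks. On estimated reads of all 6 samples, limma-voom passed 687 gained peaks among 7819 of all tested peaks with higher quiescent signal. The rule used the same contrast, so nothing is read from these counts of gained peaks. Depth limits weak members in proliferating sample 1, whose median gained peak held 19 estimated reads, against 71 and 131 in proliferating samples 2 and 3.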
